A study of Mus musculus with 18 samples.

Results

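The Malat1 and Neat1 locus of mouse chromosome 19 was described from peak lists of chromatin immunoprecipitation sequencing (ChIP-seq), in which DNA bound by a protein is pulled down with an antibody and sequenced. Members were all peaks that overlap chromosome 19 from 5780000 to 5860000 on the genome build mm9, an 80 kb window that holds both genes. There were 55 such peaks of 60701 in the 9 lists, 37 of them in 8 Foxa lists and 18 in a list made with an Hnf4alpha antibody. The window was selected on the width of peaks and on a contrast between constructs. The widest peaks of several constructs with the N-terminal domain of Foxa3 lie in it, and other constructs have narrow or no peaks there. Its peak numbers, widths and covered lengths, and every contrast between constructs on them, are therefore given as a description without a test.

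All libraries came from induced hepatocyte-like (iHep) cells, which are C57BL/6 mouse embryonic fibroblasts of embryos at 13.5 days post coitum turned toward a liver-cell state by introduced genes. Every Foxa library came from cells infected with Hnf4alpha, a liver nuclear receptor, and 1 chimera of the forkhead proteins Foxa1, Foxa2 and Foxa3. These proteins have a DNA-binding domain between an N-terminal domain (NTD) and a C-terminal domain (CTD). Foxa1 with the NTD of Foxa3 (title 4a1_NA3, called Foxa1-N3 here), Foxa2 with the NTD of Foxa3 (Foxa2-N3), Foxa3 with the CTD of Foxa1 (Foxa3-C1) and Foxa3 with the CTD of Foxa2 (Foxa3-C2) begin with the Foxa3 NTD and were pulled down with a Foxa3 antibody. Foxa1 with the CTD of Foxa3 (Foxa1-C3) and Foxa3 with the NTD of Foxa1 (Foxa3-N1) were pulled down with a Foxa1 antibody, and Foxa2 with the CTD of Foxa3 (Foxa2-C3) and Foxa3 with the NTD of Foxa2 (Foxa3-N2) with a Foxa2 antibody. Every construct with the Foxa3 NTD has a CTD of Foxa1 or Foxa2, and every other construct has the Foxa3 CTD. The NTD, the Foxa3 CTD and the antibody therefore cannot be told apart. The Hnf4alpha antibody library is titled 4a3_DA1, which names a Foxa3 construct, whereas its transfection label gives Foxa1 and Hnf4alpha, and it entered no comparison of domains. Each construct had 1 library, so no value for a library has a replicate, and which embryos or cultures the libraries share is not given in the labels. Depth is unknown because the files list peaks and not reads, and peak lists do not allow the cell type to be checked on its expression markers.

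Malat1 and Neat1 encode long noncoding RNAs that stay in the nucleus and are among the most abundant of their kind in many cell types. Malat1 RNA gathers at nuclear speckles, where splicing factors are stored, and its end is cut off as a small RNA called mascRNA. Neat1 RNA is the scaffold of paraspeckles, nuclear bodies that hold RNA-binding proteins. In the RefSeq gene table of GRCm38.p6 Malat1, with Mascrna, comes before Neat1 in chromosome order. Because this table is on another build than the peaks, it gives the order of the genes here and no borders, and no peak was assigned to an exon or an intron.

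The promoter of Malat1 is shown because peaks of 4 Foxa libraries and of the Hnf4alpha antibody library lie on the Malat1 side of the window. It holds 250 bases before and 50 bases after the start on the minus strand, from RefSeq on GRCm38.p6, with the bases after the start in capitals.
Malat1 promoter: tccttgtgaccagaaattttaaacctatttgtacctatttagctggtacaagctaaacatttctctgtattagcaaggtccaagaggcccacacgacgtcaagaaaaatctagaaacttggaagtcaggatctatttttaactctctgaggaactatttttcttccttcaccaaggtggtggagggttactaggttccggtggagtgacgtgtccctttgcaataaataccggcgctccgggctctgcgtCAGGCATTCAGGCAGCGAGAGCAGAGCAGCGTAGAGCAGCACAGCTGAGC
Its GC content was 47%. It was searched on both strands for 3 forms of the motif bound by forkhead proteins. The form TGTTTAC was found 0 times in these 300 bases, and 3.65% of 32851 promoters of the same length hold it. A second form, with the letters TGTTTGC, was also found 0 times here and is held by 5.07% of promoters. For the last form, which reads TATTTAC, the number was again 0 and the share 3.04%, and 11.2% of promoters hold any of the 3 forms. The absence says only that these letters are not in this stretch.

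Of the 8 Foxa libraries, 5 had peaks in the window and 3 had none. Foxa3-C1 had 16 peaks that covered 14914 bp, or 18.6% of the window. Foxa3-C2 had 6 peaks over 8235 bp (10.3%) and Foxa2-N3 had 5 peaks over 6428 bp (8.04%). These 3 libraries share the Foxa3 NTD and the Foxa3 antibody, and none has the Foxa3 CTD. Foxa3-N2 had 7 peaks over 2896 bp (3.62%) and Foxa2-C3 had 3 peaks over 1082 bp (1.35%), and both were made with the Foxa2 antibody. Foxa1-N3, Foxa1-C3 and Foxa3-N1 had 0 peaks there. Having no peak is common in these lists: of the 11833 windows of 80 kb with a peak in any of the 9 lists, 7.57% held a peak of Foxa1-N3, 31.8% one of Foxa1-C3 and 45.9% one of Foxa3-N1.

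The lists differ in length, with 3594 peaks in Foxa3-C2, 4807 in Foxa1-C3, 7625 in Foxa3-N1 and 956 in Foxa1-N3, the remaining library with the Foxa3 NTD. Windows with a peak made up 24.5% for Foxa3-C2, 33.2% for Foxa2-N3, 44.2% for Foxa3-C1, 65.7% for Foxa2-C3 and 74.0% for Foxa3-N2. The peaks of the window made up 0.212% of the Foxa3-C1 list (95% Wilson interval 0.131 to 0.345%), 0.167% of Foxa3-C2 (0.0765 to 0.364%) and 0.0956% of Foxa2-N3 (0.0408 to 0.224%). The shares were 0.0423% in Foxa3-N2 (0.0205 to 0.0873%) and 0.0219% in Foxa2-C3 (0.00744 to 0.0643%). For the lists at 0%, the interval reached 0.400% in Foxa1-N3, 0.0504% in Foxa3-N1 and 0.0799% in Foxa1-C3. These intervals cover counting error only and treat peaks as independent draws. They do not compare constructs, since each construct had 1 library.

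By antibody, the 2 Foxa1 libraries held 0 peaks of the window among 12432 in their lists, the 2 Foxa2 libraries held 10 among 30258, and the 4 Foxa3 libraries held 27 among 17313. The 4 libraries with the Foxa3 NTD had a mean covered length of 7394 ± 6134 bp and the 4 with the Foxa3 CTD 994.0 ± 1366 bp (SD over constructs, n = 4 each). Their mean peak numbers were 6.75 ± 6.7 and 2.5 ± 3.32. The sides overlapped, since Foxa1-N3 had no peak and Foxa3-N2 had more peaks than Foxa2-N3 and Foxa3-C2. The window was selected on the contrast of these sides, so the means restate that choice.

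**Figure D1:**
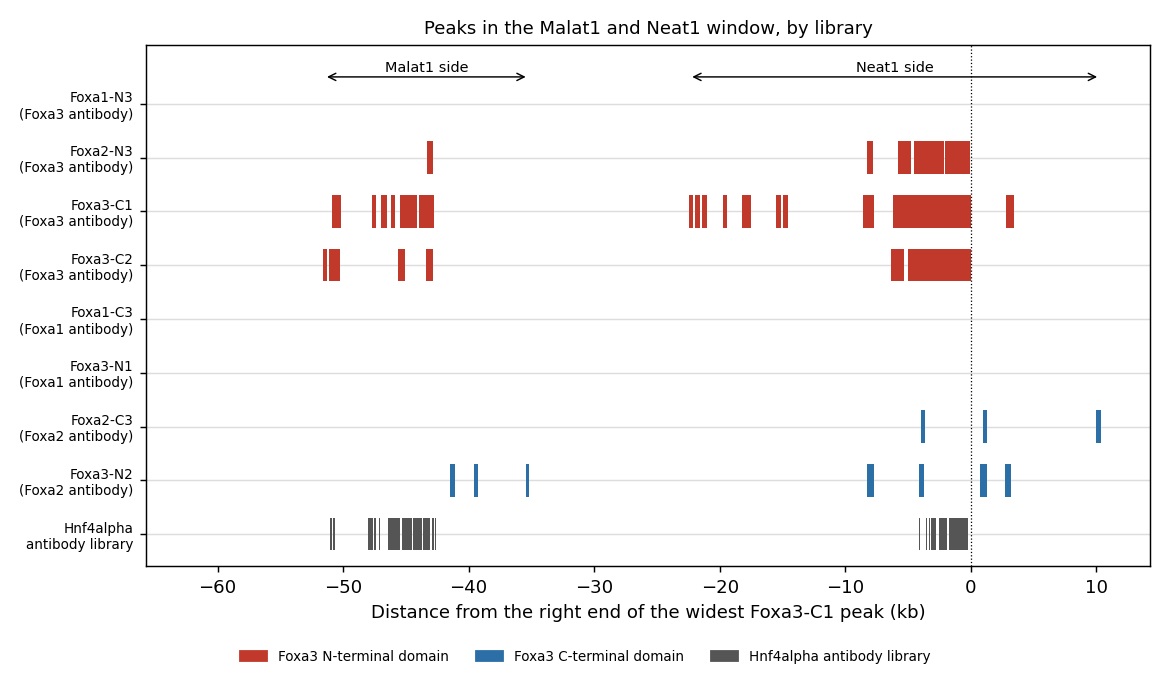
Peaks of the 9 libraries in the window, 1 row per library, against the distance in kb from the right end of the widest Foxa3-C1 peak (dotted line). Bars are peaks drawn to scale, coloured by the terminal domain taken from Foxa3, and the arrows mark the stretches called the Malat1 side and the Neat1 side. The 3 upper libraries with peaks show a wide block just left of the line, and Foxa1-N3, Foxa1-C3 and Foxa3-N1 show none.

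The DNA-binding domain and the partner protein were compared in the same way, also without a test, since peak number and covered length in the window are the kind of values on which it was selected. Constructs with the DNA-binding domain of Foxa3 had 7.25 ± 6.6 peaks in the window, and the others, with a domain from Foxa1 or Foxa2, had 2.0 ± 2.45 (SD, 4 constructs on each side). Covered length was 6511 ± 6559 bp with the Foxa3 domain and 1878 ± 3076 bp with the others. In pairs matched on terminal layout and partner, the Foxa3 domain had more peaks in 3 of 4 and the same number in 1, where neither construct had a peak. These counts are not scaled to list length. One pair set Foxa3-C1, with 16 peaks in the window from a list of 7533, against Foxa1-N3, with 0 from a list of 956. Foxa3-C1 carried much of the difference in peak number, which was 5.25 with all constructs and 2.33 without it, and 7.67 without Foxa3-N1.

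Constructs made with Foxa2 had 5.25 ± 1.71 peaks and those made with Foxa1 had 4.0 ± 8.0 (SD, 4 constructs on each side). Covered lengths were 4660 ± 3257 and 3729 ± 7457 bp. All 4 Foxa2 constructs had at least 3 peaks, whereas Foxa3-C1 held all 16 peaks of the Foxa1 constructs. Among constructs with the Foxa3 CTD the antibody changes with the partner. Foxa2-C3 and Foxa3-N2, with the Foxa2 antibody, had lists of 13715 and 16543 peaks. Foxa1-C3 and Foxa3-N1, with the Foxa1 antibody, had 4807 and 7625. Partner, antibody and list length cannot be told apart there. Without Foxa3-C1 the difference was 5.25 peaks in place of 1.25, and its sign turned when Foxa1-N3, Foxa1-C3 or Foxa3-N1 was left out (-0.0833 peaks each).

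Merging the overlapping peaks of the 8 Foxa lists gave 22 regions in the window. Of these, 7 (31.8%) were found in 2 or more lists, against 52.5% of the 24999 regions of the genome. The remaining 15 were found in 1 list each, 10 of them in Foxa3-C1, 3 in Foxa3-N2 and 1 each in Foxa3-C2 and Foxa2-C3. No region of the window was found in 6 or more lists, which could not occur because only 5 Foxa lists had peaks there. Of the 24999 regions of the genome, 978 were found in 6 lists, 1037 in 7 and 529 in 8. The regions fell into 2 groups with no Foxa peak over 12690 bp between them. The group at lower coordinates (5794114 to 5810517), called the Malat1 side after the order of the genes, held 10 regions, and the group at higher coordinates (5823208 to 5856036), the Neat1 side, held 12.

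Every Foxa library with peaks in the window covered more bases on the Neat1 side. That side is also longer, at 32829 bp against 16404 bp, and the lengths given here are not scaled to it. Foxa3-C1 covered 10546 bp there and 4368 bp on the Malat1 side. Foxa3-C2 covered 6074 and 2161 bp, and Foxa2-N3 covered 5924 and 504 bp. In Foxa3-N2 the lengths were 1886 and 1010 bp, and in Foxa2-C3 they were 1082 and 0 bp. The Hnf4alpha antibody library differed in this order, with 2858 bp on the Neat1 side and 4134 bp on the Malat1 side.

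**Figure D2:**
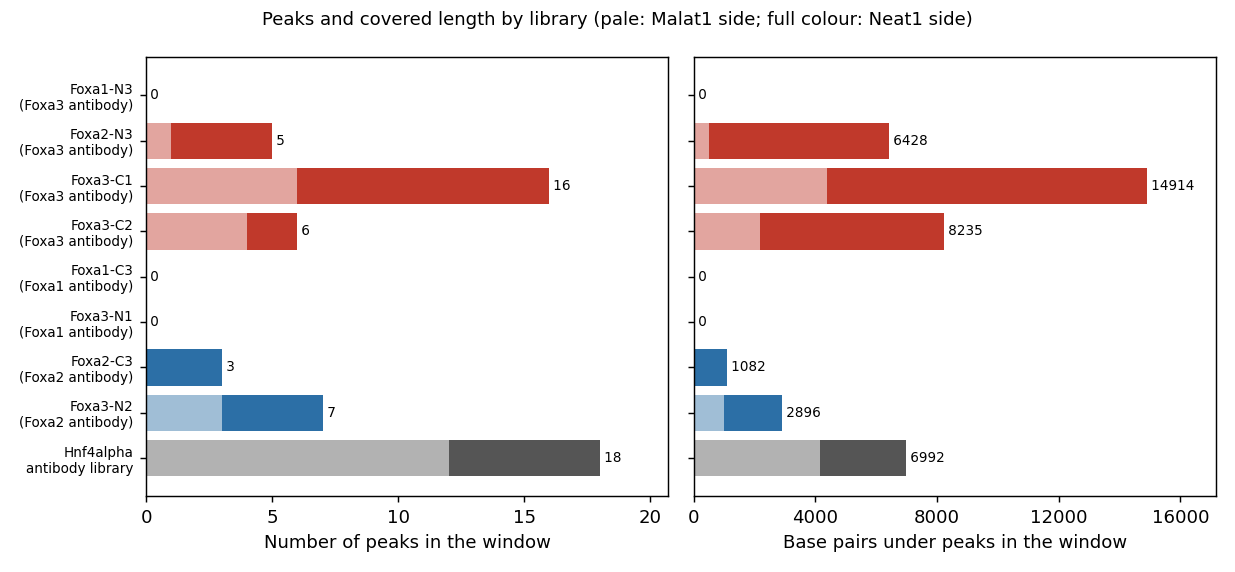
Number of peaks (left) and base pairs under peaks (right) in the window for each library, with the total at the end of each bar. Pale parts lie on the Malat1 side and full colours on the Neat1 side. Foxa3-C1 has the longest bar for covered length, 14914 bp, and the Hnf4alpha antibody library has the most peaks, 18.

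The region with the most lists was a wide one on the Neat1 side (5839355 to 5845693, 6339 bp), found in 5 lists. Foxa3-C1 covered 97.2% of it with a single peak of 6164 bp (5839516 to 5845679; authors' score 61.8, rank 365 of 7533, where rank 1 is the strongest). Foxa3-C2 covered 95.8% with a peak of 5032 bp (5840662 to 5845693; score 31.1, rank 452 of 3594) and one of 1042 bp before it (5839355 to 5840396; rank 1789). Foxa2-N3 covered 86.2% with 3 peaks. These were 1016 bp (5839870 to 5840885; rank 3618 of 5230), 2440 bp (5841142 to 5843581; score 21.9, rank 1821) and 2007 bp wide (5843647 to 5845653; score 29.7, rank 1047). The peaks of these 3 libraries thus form nearly the same block, whole in Foxa3-C1, in 2 pieces in Foxa3-C2 and in 3 pieces in Foxa2-N3, and 5198 bp of the Neat1 side lay under peaks of all of them.

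The right ends of the block lay close together, at 5845679 in Foxa3-C1, 5845693 in Foxa3-C2 and 5845653 in Foxa2-N3, a spread of 40 bp. Their left ends spread over 515 bp. Foxa2-C3 and Foxa3-N2 each had a narrow peak inside the block, of 358 bp (5841690 to 5842047; rank 12696 of 13715) and 357 bp (5841589 to 5841945; rank 14301 of 16543). The narrow peaks shared 256 bp with each other (5841690 to 5841945). They stood low in their lists, so at this site the Foxa2 antibody libraries had weak narrow peaks and the Foxa3 NTD libraries, other than Foxa1-N3, had broad ones. The contrast of broad and narrow peaks is part of what the window was selected on.

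**Figure D3:**
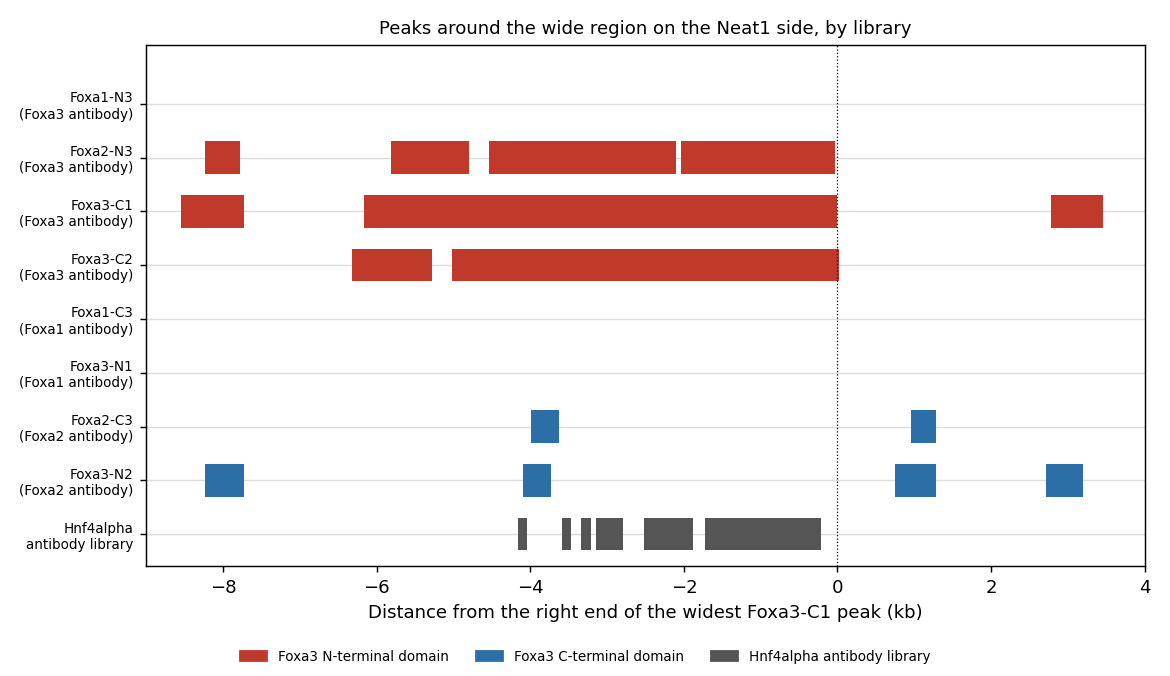
Peaks around the wide region on the Neat1 side, 1 row per library, against the distance in kb from the right end of the widest Foxa3-C1 peak (dotted line). Bars are peaks drawn to scale and coloured as by terminal domain. The right ends of the Foxa2-N3, Foxa3-C1 and Foxa3-C2 blocks lie within 40 bp, whereas Foxa2-C3 and Foxa3-N2 have peaks of 358 and 357 bp inside the block and further peaks to its right.

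The widest peaks of this block were not the highest by score. The Foxa3-C1 and Foxa3-C2 peaks were the widest of their lists, 2.58 and 3.04 times as wide as the widest peak outside the window (2392 and 1656 bp). They ranked at 4.85% and 12.6% of their lists by score. Both wider Foxa2-N3 peaks were the widest of that list, the first of them 1.4 times as wide as the widest elsewhere (1745 bp) and ranked at 34.8%. Among all peaks wider than 1000 bp, the median rank was 15.7% of the Foxa3-C1 list, 13.4% of the Foxa3-C2 list and 20.4% of the Foxa2-N3 list. Such peaks made up 1.31%, 0.417% and 0.421% of these lists. In the window they numbered 3 of the 16 Foxa3-C1 peaks, 2 of the 6 Foxa3-C2 peaks and 3 of the 5 Foxa2-N3 peaks, and nothing is read from these counts because width led to the choice of the window. Of the 3 Foxa2-C3 peaks and the 7 Foxa3-N2 peaks here, 0 were wider than 1000 bp. In their whole lists the shares were 0.766% and 0.641%, so 0 among so few peaks is no departure. Their widest peaks in the window measured 400 and 541 bp.

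**Figure D4:**
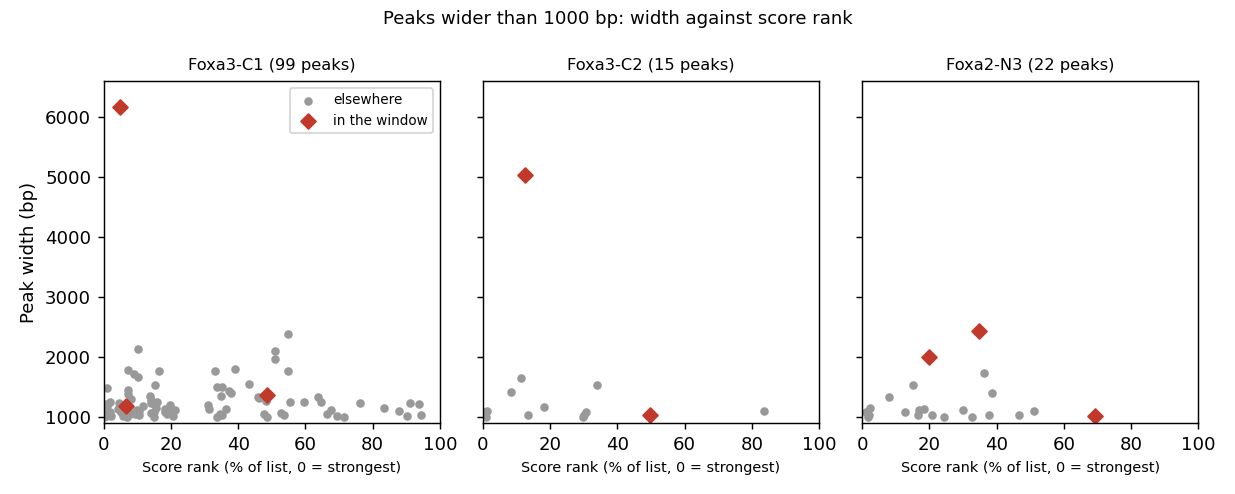
Width in bp of every peak wider than 1000 bp against its score rank as a percentage of the list (0 is the strongest), in Foxa3-C1, Foxa3-C2 and Foxa2-N3. Red diamonds are peaks in the window and grey points are peaks elsewhere. The widest peak of each list, at 6164, 5032 and 2440 bp, lies in the window, at score ranks of 4.85%, 12.6% and 34.8% of the list.

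The other regions of 2 or more lists on the Neat1 side were narrower. One (5837138 to 5837953) held peaks of Foxa2-N3 (461 bp, rank 3298), Foxa3-N2 (506 bp, rank 13088) and Foxa3-C1 (816 bp, rank 5851), and the left ends of the Foxa2-N3 and Foxa3-N2 peaks, 5837442 and 5837443, differed by a single base. To the right of the wide block, Foxa2-C3 (324 bp, rank 8880) and Foxa3-N2 (541 bp, rank 11166) shared a region (5846424 to 5846966) that held no peak of a library with the Foxa3 NTD. Foxa3-N2 (482 bp, rank 7906) and Foxa3-C1 (669 bp, rank 7093) shared another (5848400 to 5849134). The peak of Foxa2-C3 furthest to the right (5855637 to 5856036; rank 6420) stood alone. Foxa3-C1 alone had 7 peaks between 5823208 and 5831084, with widths of 325 to 689 bp and scores of 8.35 to 13.2, all in the weaker part of its list (ranks 5406 to 7263 of 7533).

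On the Malat1 side, 1 region (5801692 to 5802885) carried peaks of Foxa2-N3, Foxa3-C1 and Foxa3-C2 and of no other Foxa list, a pattern shown by 0.300% of all regions. This was the strongest peak of the window in Foxa3-C2, with 538 bp (5802305 to 5802842; score 38.0, rank 274). In Foxa3-C1 it was 1194 bp wide (score 54.7, rank 495) and in Foxa2-N3 504 bp (5802330 to 5802833; score 25.6, rank 1398). As in the wide block, the right ends lay close together, within 52 bp, and the left ends spread over 638 bp. The whole Foxa2-N3 peak, 504 bp, lay under peaks of both others.

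Foxa3-C1 and Foxa3-C2 shared the other regions of more than 1 list on this side. One of them (5800090 to 5801600) held a peak of 1380 bp in Foxa3-C1 (rank 3653) and one of 504 bp in Foxa3-C2 (rank 3520 of 3594). The other (5794584 to 5795477) held peaks of 639 bp (rank 6004) and 835 bp (rank 2323). Foxa3-N2 also had 3 peaks on this side, of 303 to 376 bp, but all lay at higher coordinates than those of the other libraries (5804194 to 5810517) and met no peak of another list. Over the window, 89.7% of the bases covered in Foxa3-C2 were covered in Foxa3-C1, as were 100% of those in Foxa2-N3, 44.2% of those in Foxa3-N2 and 33.1% of those in Foxa2-C3. Of the bases covered in Foxa3-C1, 49.6% were also covered in Foxa3-C2, 43.1% by Foxa2-N3 peaks, 8.58% in Foxa3-N2 and 2.4% in Foxa2-C3.

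The Hnf4alpha antibody library had 18 of its 698 peaks in the window (2.58%, 95% Wilson interval 1.64 to 4.04%), or 6.5% of all bases under its peaks. In Foxa3-C2 and Foxa3-C1 the window held 0.590% and 0.407% of the bases of the list. The Hnf4alpha antibody peaks formed runs of short pieces, 12 on the Malat1 side (5794647 to 5803094) and 6 on the Neat1 side (5841526 to 5845463), with a median gap of 135.5 bp within a side. The widest, 1505 bp (5843959 to 5845463), was the only peak of that list over 1000 bp (0.143% of the list) and ranked 6 by score, and its neighbour (5843156 to 5843792, 637 bp) ranked 12. On the Malat1 side the strongest peak (5801253 to 5801977, 725 bp) ranked 19.

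These peaks overlapped those of Foxa3-C1, Foxa3-C2 and Foxa2-N3, closely on the Neat1 side and only in part on the Malat1 side. On the Neat1 side, 6 of 6 met a peak of Foxa3-C1, Foxa3-C2 and Foxa2-N3, and all 2858 bp lay under peaks of Foxa3-C1 and of Foxa3-C2. The last one ended 190 to 230 bp before the right ends of the Foxa blocks. On the Malat1 side 10 of 12 met a Foxa peak, 8 with Foxa3-C1, 6 with Foxa3-C2 and 2 with Foxa2-N3, with 2786, 1042 and 348 bp shared. Of the 18 peaks, 0 met Foxa2-C3 and 1 met Foxa3-N2, by 52 bp. Read from the Foxa lists, the peaks that met an Hnf4alpha antibody peak were 6 of 16 for Foxa3-C1, 4 of 6 for Foxa3-C2 and 3 of 5 for Foxa2-N3, where 2.19%, 2.53% and 1.19% of the whole lists did. In Foxa3-N2 they were 1 of 7, against 0.586% of the list, and in Foxa2-C3 0 of 3, against 0.372%. Of the 22 merged regions 6 (27.3%) met such a peak, against 0.868% of all regions. A wider peak has more room to meet another, and the window was selected for wide peaks. The shares of the whole lists are therefore not a like background. Because the window was also chosen with these lists known, the shares are a description. Whether the same chromatin was pulled down without the antibodies' targets was not tested.

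Among 11833 windows of 80 kb that held a peak of any list, placed in step with this one, the locus had the largest covered length in 4 lists. The next highest value was 13082 bp in Foxa3-C1 (chromosome 13, 23620001 to 23700000), 5975 bp in Foxa3-C2 (chromosome 12, 55780001 to 55860000), 6160 bp in Foxa2-N3 (chromosome 5, 90820001 to 90900000) and 4999 bp in the Hnf4alpha antibody library (chromosome 10, 21700001 to 21780000). With windows started at 8 offsets this held in 3 of the 4 lists, whereas for Foxa2-N3 a window on chromosome 5 (90850001 to 90930000) covered 8128 bp. By peak number the locus ranked 1 for Foxa3-C1 and for the Hnf4alpha antibody library, 3 for Foxa3-C2 and 8 for Foxa2-N3. At least as many peaks were found in 0.00845%, 0.00845%, 0.0676% and 0.194% of the windows for these lists, in 0.947% in Foxa3-N2 and in 12.4% in Foxa2-C3. For Foxa2-C3, 15.6% of windows covered at least the 1082 bp of the locus, and for Foxa3-N2 1.31% covered at least its 2896 bp. All these shares count the locus itself, which was selected for its wide peaks, so they are a description.

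The windows most like the locus were sought by the Pearson correlation of covered length over the 8 Foxa libraries, among 6009 other windows with peaks in 3 or more lists. The libraries share their list lengths across windows, and the correlation is a description of shape and not of size. The best was on chromosome 3 (96260001 to 96340000; r = 0.984), with 2941 bp in Foxa3-C1, 1243 bp in Foxa2-N3, 1101 bp in Foxa3-C2, 559 bp in Foxa3-N2 and 0 bp in the other 4 Foxa lists. It was followed by windows on chromosome 1 (65060001 to 65140000; r = 0.981), chromosome 15 (79860001 to 79940000; r = 0.979), chromosome 6 (136740001 to 136820000; r = 0.978) and chromosome 12 (100980001 to 101060000; r = 0.976). Each of these 4 held a single peak in Foxa3-C1, Foxa3-C2 and Foxa2-N3 and none in the other Foxa lists, with 705 to 954 bp in Foxa3-C1. The Hnf4alpha antibody library had peaks in 3 of the 5 windows, 137 bp on chromosome 3, 210 bp on chromosome 15 and 322 bp on chromosome 6. That library had a peak in 3.36% of the 11833 windows with a peak of any list. This share is not a like background, because the 5 windows were picked from 6009 that held peaks in 3 or more lists. The count is therefore a description.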

How the data were processed

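Peak lists of 9 ChIP libraries were used; the 9 input libraries were not analysed here. BWA 0.6.2, bedtools 2.16.2, MACS2 2.1.0 and build mm9 are named in the submitters' processing notes; for settings and the use of the input, the sources used here give nothing. Each deposited list gives position, name and a score per peak; this score is the authors' value, of a kind not stated (lowest 5.11), and was used to rank peaks within a list and, in 1 alternative, to filter all lists at a common value, which assumes that scores compare between lists. Starts were converted to count from 1. Peaks were merged into regions at an overlap of 1 bp, and regions into 2 sides at gaps over 10 kb, a limit set after seeing the data. Values in full are given for the widest and best-ranked peaks of each list and for regions of 2 or more lists. Paraspeckle protein genes and other noncoding RNA genes were listed for an annotation on mm9 and were not analysed here. Planned tests of peak number and covered length by DNA-binding domain and partner are not reported, because the window was chosen on such values. Members and lists were chosen with earlier results of these data known. Alternatives were a score above 19.2 (the pooled median), the strongest 956 peaks of each list, merging within 1 kb, midpoints within 200 bp, 50% reciprocal overlap and leaving out each construct. The routines, in Python 3.11.15 with scipy 1.17.1, pandas 2.3.3, numpy 2.4.6 and matplotlib 3.10.9, were tested on simulated data.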

Additional observations from a re-analysis of the deposited data

Results flagged for a closer look

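Among the 4 constructs made with Foxa1, Foxa3-C1 stood far from the others in both peak number (16) and covered length (14914 bp), since the other 3 had no peak in the window. Among the 4 constructs with the DNA-binding domain of Foxa1 or Foxa2, Foxa2-N3 stood apart in covered length (6428 bp). The 12 groups of 4 looked at share libraries. Their values are of the kind on which the window was selected, and some groups hold tied zeros. The flags are therefore a description, and no rate of chance is attached to them. The 18 peaks of the Hnf4alpha antibody library are flagged because that library entered no comparison of domains.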

How the results depend on the processing

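Libraries could not be paired by embryo or culture, because the labels give neither these nor replicate numbers. Constructs were matched by their domains instead, as a description. The 22 merged regions became 4 with scores above 19.2, 2 with the strongest 956 peaks of each list and 14 after merging within 1 kb, and 30 and 28 when peaks were matched by midpoints within 200 bp and by 50% reciprocal overlap. With the strongest 956 peaks, Foxa3-C1 and Foxa3-C2 kept 2 peaks each and the other 6 lists had 0, so the presence of Foxa2-N3, Foxa2-C3 and Foxa3-N2 rests on weaker peaks. Leaving out each construct gave 12 to 22 regions (12 without Foxa3-C1). Of the 18 Hnf4alpha antibody peaks, 16 met a Foxa peak by 1 bp, 9 by midpoints within 200 bp and 3 by reciprocal overlap of 50%; merged within 1 kb, they formed 3 pieces, of which 3 did. By DNA-binding domain, leaving out each construct gave differences of 2.33 to 7.67 peaks and 1833 to 6804 bp. Scores above 19.2 left a difference of 0.25 peaks, and the strongest 956 peaks of each list left 1.0 peaks. By partner protein, leaving out each construct gave -0.0833 to 5.25 peaks and -311.0 to 4660 bp. With the strongest 956 peaks the difference by partner was 0 peaks and turned from 932.0 to -447 bp. By terminal layout the differences were 4.25 peaks and 6400 bp with all constructs. The window was selected on this contrast, so the alternatives below describe its size and give it no support. Leaving out each construct, they ran from 1.17 peaks and 3893 bp (without Foxa3-C1) to 6.5 peaks and 8865 bp (without Foxa1-N3). Scores above 19.2 left 1.25 peaks and 4249 bp, and the strongest 956 peaks left 1.0 peaks and 3232 bp. Merging within 1 kb left 1.5 peaks. Narrowing the window by 10 kb or widening it by 20 kb at each end, chosen after seeing the data, gave 4.5 and 4.25 peaks. Filters on score or rank leave fewer peaks, and matching rules change which peaks count as shared; other causes were not tested. Unknown depth limits any statement on peaks that are not listed.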
